A study of Mus musculus with 4 samples.

Results

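The genes of the translation initiation factors (eIFs) and elongation factors (eEFs) were taken as the protein-coding genes whose symbol begins with Eif or Eef followed by a digit. The annotation held 71 such genes of 21900 protein-coding genes, and 25 of them were the listed gene of 35 of the 4088 peaks in the deposited table. H3K27ac, a histone acetylation that marks promoters and enhancers in use, was mapped by ChIP-seq. The cells were mouse embryonic stem cells (mESCs) of the Sv129 line, cultured with 4 mg/L folate (FA4, the control) or with 0 mg/L folate (FA0). Routine culture of the line was in DMEM with serum and antibiotics. There were 4 libraries, 1 immunoprecipitated (IP) and 1 input library per condition, so the differences could not be checked against replicates and p-values are not given. The table was read as regions with more H3K27ac in the FA4 IP than in the FA0 IP library. It does not state that order, which was inferred from the name that the study gives to the same promoter peaks. The study's prose can be read the other way, and with the opposite order each difference below would change sign. Regions higher in FA0 could not appear in such a table, and H3K27ac levels at genes with no listed peak were not analysed here.

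The FA4 signal is given as the pileup, the number of fragments stacked at the summit of a called peak, which is not the library depth. It ran from 8 to 265 over all peaks with a median of 12. The local FA0 background is a scaled value. It moved in steps smaller than a whole fragment, as from 26.2587 at Eef1g to 26.4974 at Eif1. Whether a deeper FA0 library was scaled down to the FA4 library was not tested. A difference in depth between the IP libraries would bear on every comparison of FA4 with FA0. Of 10 mESC marker genes 7 had a promoter peak, among them Pou5f1, Sox2 and Nanog, while Klf4, Esrrb and Tfcp2l1 had none. The share over all protein-coding genes was 4.73%. None of 6 neural progenitor, 6 mesoderm and endoderm or 6 feeder fibroblast markers had one, and of 4 trophoblast markers only Tfap2c did. These peaks are differences between the conditions, so a marker without one may still carry H3K27ac.

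Initiation begins when eIF2 bound to GTP brings the initiator tRNA to the small ribosomal subunit together with eIF1, eIF1A, eIF3 and eIF5. The eIF4 proteins recognise the cap of the mRNA, unwind its leader and recruit that complex, which scans to the start codon, where eIF5B joins the large subunit. Elongation then needs eEF1A to deliver each aminoacyl-tRNA and eEF2 to move the ribosome along the message. Stem cells and other growing cells rely on these factors throughout, and their supply and activity are controlled by kinases acting on eIF2 and by the TOR pathway acting on the cap-binding step.

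The promoter windows of the members with the tallest promoter peak in the Eif1, Eif2, Eif3, Eif4, Eif5, Eef1 and Eef2 groups, and of the X-linked and Y-linked eIF2 gamma genes, are shown because the values below turn on these genes. Each window runs 5′ to 3′ on the strand of the gene from 100 bases before to 30 bases after the RefSeq start (GRCm38.p6, the assembly of mm10), and it is the sequence before the gene, not that of the whole peak. Capitals mark matches to the elements that are spelled out with the motif counts further on, on either strand, and a C at or within 5 bases of the start that is followed by at least 4 pyrimidines.
Eif1, chr11:100319849-100319978, plus strand: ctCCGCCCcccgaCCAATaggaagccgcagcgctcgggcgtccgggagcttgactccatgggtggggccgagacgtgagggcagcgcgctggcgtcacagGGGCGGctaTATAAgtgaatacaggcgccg
Eif2s2, chr2:154892877-154893006, minus strand: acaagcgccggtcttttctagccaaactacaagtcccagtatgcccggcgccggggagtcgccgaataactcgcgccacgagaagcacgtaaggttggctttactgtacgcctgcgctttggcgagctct
Eif2s3x, chrX:94212622-94212751, minus strand: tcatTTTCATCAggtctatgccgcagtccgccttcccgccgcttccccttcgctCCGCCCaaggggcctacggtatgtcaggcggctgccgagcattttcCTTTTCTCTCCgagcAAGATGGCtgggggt
Eif2s3y, chrY:1010495-1010624, plus strand: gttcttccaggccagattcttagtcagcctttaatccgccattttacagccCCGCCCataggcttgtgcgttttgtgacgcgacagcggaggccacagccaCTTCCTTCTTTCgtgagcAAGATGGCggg
Eif3d, chr15:77970795-77970924, minus strand: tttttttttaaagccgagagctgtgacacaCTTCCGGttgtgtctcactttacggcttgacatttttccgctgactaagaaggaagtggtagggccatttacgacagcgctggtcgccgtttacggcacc
Eif4a2, chr16:23107368-23107497, plus strand: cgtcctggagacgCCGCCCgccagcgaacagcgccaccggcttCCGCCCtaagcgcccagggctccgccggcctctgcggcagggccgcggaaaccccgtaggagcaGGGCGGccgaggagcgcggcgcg
Eif5, chr12:111538001-111538130, plus strand: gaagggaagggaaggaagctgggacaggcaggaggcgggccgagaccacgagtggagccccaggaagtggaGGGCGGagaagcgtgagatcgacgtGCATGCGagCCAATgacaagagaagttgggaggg
Eef1a1, chr9:78481695-78481824, minus strand: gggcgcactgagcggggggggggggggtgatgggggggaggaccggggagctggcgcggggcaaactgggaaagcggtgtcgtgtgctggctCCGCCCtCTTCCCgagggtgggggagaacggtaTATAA
Eef2, chr10:81176531-81176660, plus strand: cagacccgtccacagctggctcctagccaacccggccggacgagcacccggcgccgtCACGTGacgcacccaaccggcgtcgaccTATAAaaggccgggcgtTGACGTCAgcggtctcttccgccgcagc
No window is shown for Eif2b3. The Eif2s2 window held none of the elements searched. The Eif2s3x and Eif2s3y windows, from genes that encode the same subunit, had a longest shared run of 12 bases, gagcAAGATGGC, which lies just after the start in both.

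A promoter peak, that is a peak placed by the authors within 3 kb of a transcription start site, was listed for 24 of the 71 genes (33.8%, exact binomial 95% interval 23.0 to 46.0). The same was true of 4.73% of all protein-coding genes. For a peak of any class the count was 25 of 71 (35.2%, 24.2 to 47.5) against 9.23%. Within 1 kb of a start site it was 21 of 71 (29.6%) against 3.55%, and for promoter peaks with a −log10 q of at least 3 it was 20 of 71 (28.2%) against 2.95%. The lower ends of the intervals for any peak and for promoter peaks lay above these background shares. The intervals treat genes as independent and cover counting error only.

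The peaks were concentrated in the factors themselves. Of the 51 genes that encode a factor or a factor subunit, 22 had a promoter peak (43.1%, 29.3 to 57.8), whereas of the 20 genes that encode kinases, binding proteins, methyltransferases and other partners, 2 did (10%, 1.23 to 31.7). These intervals overlap, and the difference was not tested. Among the factors, split by symbol so that Eif5a and Eif5a2 count as initiation genes although eIF5A acts in elongation, 5 of 6 elongation genes (83.3%, 35.9 to 99.6) and 17 of 45 initiation genes (37.8%, 23.8 to 53.5) had a promoter peak, again with overlapping intervals.

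**Figure D1:**
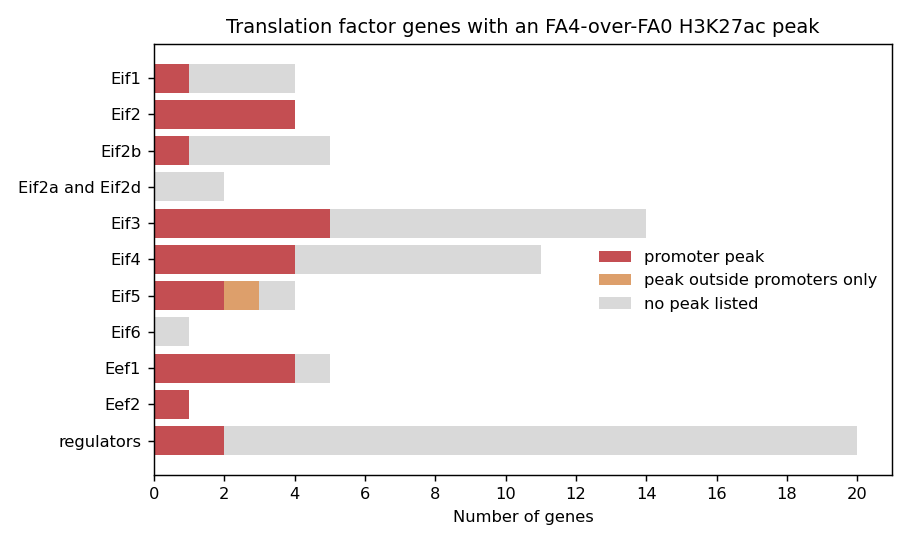
Number of genes in each factor complex (horizontal axis) with a promoter peak (red), with peaks outside promoters only (orange) and with no listed peak (grey). All 4 Eif2 genes and 4 of 5 Eef1 genes had a promoter peak, against 5 of 14 Eif3 genes and 2 of 20 regulators.

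With genes grouped by symbol, Eif2 was the one group of several genes in which every gene had a promoter peak, 4 of 4 (exact interval 39.8 to 100%). Eif2s2, which encodes the beta subunit, had the strongest of all the factor peaks, at chromosome 2, 154892077 to 154892791 (mm10), within 1 kb of its start. There 148 FA4 fragments (Poisson 95% interval 125 to 174) stood over a local FA0 background of 36.0, giving a fold enrichment of 4.02 and a −log10 q of 37.6. By −log10 q it ranked 5 among the 1181 promoter peaks of protein-coding genes, while its fold was above that of 80.4% of them. A second promoter peak of Eif2s2, at 154891492 to 154891743, was lower, with 42 fragments over 19.2 and a fold of 2.13. Another Eif2s2 peak, at 154903512 to 154903876 in an intron of another gene of the authors' annotation, had 35 fragments over 7.76 and a fold of 4.11.

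Eif2s1, which encodes the alpha subunit that stress kinases phosphorylate, had 1 peak, within 1 kb of its start at chromosome 12, 78861837 to 78862290, where 72 FA4 fragments stood over 27.7, a fold of 2.54. The gamma subunit, which binds GTP and the initiator tRNA, is encoded by separate genes on the sex chromosomes, and both had a promoter peak. Eif2s3x, at chromosome X, 94212709 to 94213183, had 53 fragments (39.7 to 69.3) over 16.2, a fold of 3.13. Eif2s3y, at chromosome Y, 1010619 to 1010953, had 27 fragments (17.8 to 39.3) over 8.36, a fold of 2.99. The Y-linked gene was thus lower than the X-linked gene in both FA4 pileup and FA0 background, with FA4 intervals that only just do not overlap, at nearly the same fold.

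The factors that work with eIF2 were listed less evenly. Eif1, whose product guards start codon selection, had 72 fragments over 26.5 in its promoter peak (chromosome 11, 100320608 to 100320919), a fold of 2.65, whereas its close relative Eif1b and the eIF1A genes Eif1a and Eif1ax had none. eIF2B reloads eIF2 with GTP, and of its 5 genes only Eif2b3 was listed. Its peak, at chromosome 4, 117068050 to 117068364, had 16 fragments (9.15 to 26.0) over 1.60, the lowest background in the table. The fold of 6.53 ranked 7 among protein-coding promoter peaks, but the summit lay 48792 bp inside the gene as measured from its RefSeq 5′ end, next to the start of a shorter transcript that the authors' annotation holds. Eif2b1, Eif2b2, Eif2b4 and Eif2b5 had no peak, nor did Eif2a and Eif2d, which encode alternative tRNA-delivering factors.

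Eif5, which encodes the protein that triggers GTP hydrolysis by eIF2, had 90 fragments over 33.7 in its promoter peak (chromosome 12, 111537504 to 111537834), a fold of 2.63. Its summit lay 304 bp before the authors' start. Eif5b, the gene of the GTPase that joins the subunits, was the only listed member with no promoter peak. It had low peaks in intron 1, with 10 fragments over 1.91 and a fold of 3.78, and in an exon, with 9 fragments over the same background and a fold of 3.44. Eif6, whose product keeps the ribosomal subunits apart, had none.

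eIF3, the largest initiation complex and the scaffold on the small subunit, had a promoter peak in 5 of 14 genes (35.7%, 12.8 to 64.9). Eif3d, whose product can itself bind the cap of certain mRNAs, had the tallest, at chromosome 15, 77970387 to 77970763, with 89 fragments (71.5 to 110) over 33.2 and a fold of 2.63. Eif3e, at chromosome 15, 43282332 to 43282671, had 43 fragments over 13.4 and a fold of 3.06. Eif3c, a core subunit, at chromosome 7, 126565998 to 126566344, had 42 over 16.5 and a fold of 2.46. These subunits and Eif3k therefore differed in height more than in fold. Eif3k, at chromosome 7, 28980934 to 28981266, had 36 over 12.9 and a fold of 2.67. Eif3m was different, since its peak at chromosome 2, 105009762 to 105010026, held only 10 fragments over 1.60, a fold of 4.23. Its summit lay 2552 bp before an authors' start but 7204 bp inside the gene as measured from the RefSeq 5′ end. Eif3a, Eif3b, Eif3f, Eif3g, Eif3h, Eif3i, Eif3j1, Eif3j2 and Eif3l had no listed peak, so the core subunit genes Eif3a and Eif3b were not listed with Eif3c. A promoter peak listed under Tmem234, with 29 fragments and a fold of 2.32, lay within 3 kb of Eif3i.

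In the eIF4 group the peaks fell on the helicase and its helper rather than on the cap-binding protein. Of the helicase genes Eif4a1 and Eif4a2 and the helicase cofactor genes Eif4b and Eif4h, 3 of 4 had a promoter peak, against 0 of 4 cap-binding genes (Eif4e, Eif4e2, Eif4e3 and Eif4e1b) and 1 of 3 scaffold genes. With 4 genes a count of 0 allows a share of up to 60.2%, so this contrast is a description of a few genes.

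Eif4a2, at chromosome 16, 23107492 to 23108278, had 141 FA4 fragments (119 to 166) over an FA0 background of 57.1, a fold of 2.45 and a −log10 q of 15.2. Eif4a1, at chromosome 11, 69671555 to 69672064, had 98 fragments (79.6 to 119) over 63.7, and its fold of 1.53 was the lowest of all 4088 peaks, with a −log10 q of 1.52. The paralogous helicase genes thus had similar FA0 backgrounds and FA4 pileups whose intervals overlap only at their ends. Eif4b, at chromosome 15, had 92 fragments over 28.9 at 102073927 to 102074269, a fold of 3.11, and 42 over 18.4 at 102074595 to 102075011, a fold of 2.22. Eif4g1, the main scaffold, had 26 over 7.52 at chromosome 16, 20675379 to 20675823, a fold of 3.17, in a peak 1620 bp after the authors' start. Eif4g2, Eif4g3 and Eif4h had none.

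The elongation factor genes carried some of the tallest and widest peaks. Eef1a1, the gene of the eEF1A form that most cells use, had 134 FA4 fragments (112 to 159) over 58.2 at chromosome 9, 78480330 to 78481437, a fold of 2.28. Eef1a2, which replaces it in muscle and neurons, had no peak. All 3 genes of the exchange factor that reloads eEF1A with GTP, which form a complex of their own within the Eef1 group, had one. Eef1g, at chromosome 19, 8967214 to 8968355, had 85 fragments over 26.3, a fold of 3.15. Eef1b2, at chromosome 1, 63176418 to 63176999, had 63 over 21.2, a fold of 2.88. Eef1d, at chromosome 15, 75908003 to 75908722, was the lowest of them, with 23 fragments (14.6 to 34.5) over 3.67 but a fold of 5.14. The 4 Eef1 peaks were 582 to 1142 bp wide, against a median of 333 bp over all protein-coding promoter peaks.

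Eef2, the translocation factor, had 112 fragments (92.2 to 135) over 68.0 at chromosome 10, 81176697 to 81177618, which was the highest FA0 background among the factor genes. Its fold of 1.64 was above that of only 0.254% of protein-coding promoter peaks, although its pileup was above that of 97.2%. Eif5a, the gene of the hypusine-bearing factor that helps the ribosome through difficult peptide bonds, had 75 fragments over 26.5 at chromosome 11, 69920171 to 69920442, a fold of 2.76. Its paralogue Eif5a2 had none.

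Among the regulators, Eif4ebp1 encodes a repressor that binds eIF4E until TOR phosphorylates it. It had promoter peaks with 95 fragments over 46.5 (chromosome 8, 27260640 to 27261173, fold 2.02) and 74 over 37.8 (27261506 to 27261918, fold 1.93), and an intron 1 peak with 35 over 13.1 (27267939 to 27268269, fold 2.55). All of its peaks thus had folds below the median of protein-coding promoter peaks. Eif4a3, the helicase of the exon junction complex, had a low peak 2072 bp after the authors' start at chromosome 11, 119297932 to 119298214, with 17 fragments over 4.77 and a fold of 3.12. The 4 eIF2 alpha kinase genes Eif2ak1, Eif2ak2, Eif2ak3 and Eif2ak4 had no peak, nor did the other eIF4E-binding protein genes Eif4ebp2 and Eif4ebp3 or the eIF4E transporter gene Eif4enif1. The 7 methyltransferase entries (Eef1akmt1, Eef1akmt2, Eef1akmt3, Eef1akmt4, the readthrough Eef1akmt4-ece2, Eef1aknmt and Eef2kmt) and Eef2k, Eef1e1, Eif1ad and Eif4a3l1 had none either. A peak listed under Ece2, with 10 fragments, overlapped the body of the Eef1akmt4-ece2 readthrough.

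**Figure D2:**
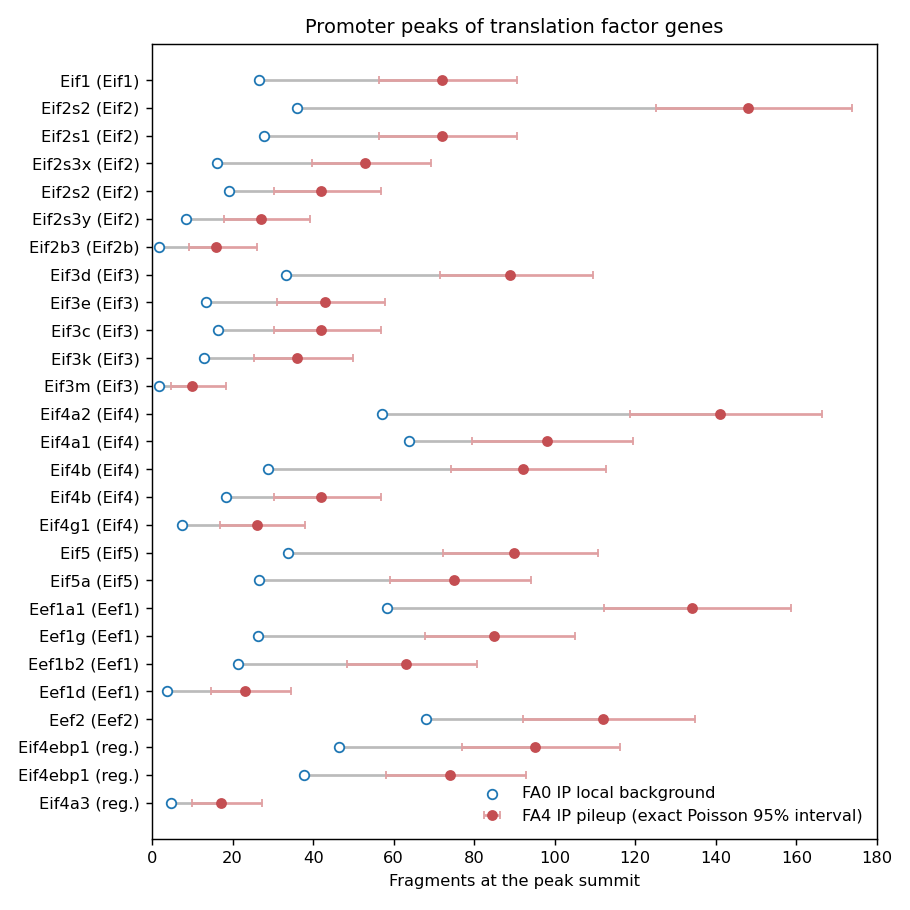
FA4 IP pileup at the summit (red, with the exact Poisson 95% interval) for the 27 promoter peaks of the factor genes, ordered by complex. Pileup is in fragments. The local FA0 IP background recovered from the fold (open blue) is a scaled value, not a raw fragment count. Eif2s2 has the widest gap, 148 over 36.0, while Eif4a1 and Eef2 have tall peaks over high backgrounds of 63.7 and 68.0.

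Over the 27 promoter peaks of the factor genes the pileup ran from 10 to 148 with a median of 72 (exact order-statistic 95% interval 42 to 90), against a median of 36 over the 1181 promoter peaks of protein-coding genes. The fold ran from 1.53 to 6.53 with a median of 2.67 (2.45 to 3.12), against 3.05. Of the 27 peaks, 20 exceeded the median pileup of protein-coding promoter peaks and 10 exceeded their median fold. The peaks were thus taller than most promoter peaks but not larger in fold. The median FA0 background was 26.3, against 12.4 over protein-coding promoter peaks. Every listed peak had to exceed its background to be called, and a tall peak can be called at a smaller fold than a low one, so these medians describe the called peaks and not the genes without one.

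**Figure D3:**
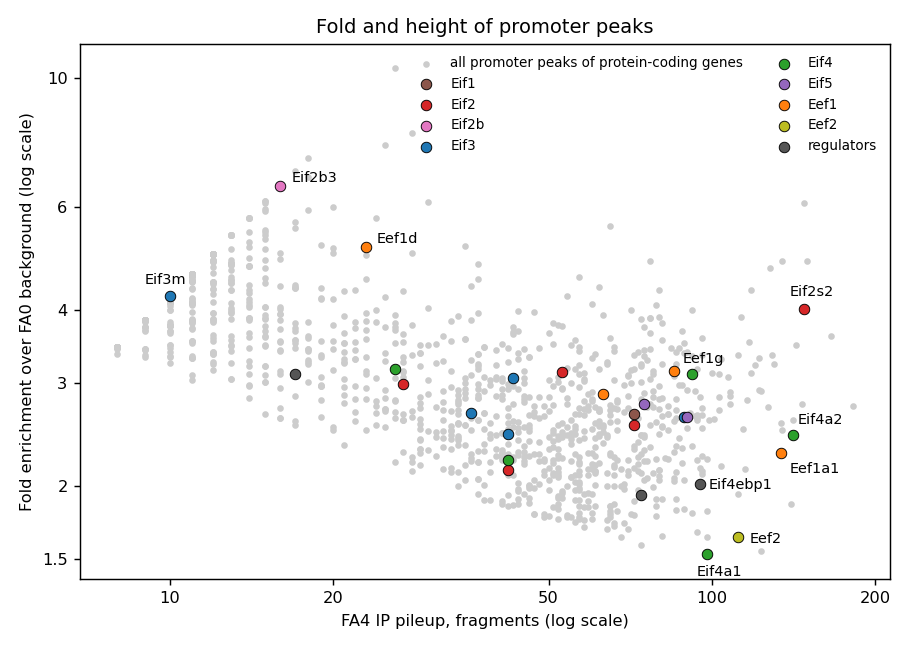
Fold enrichment over the FA0 background against FA4 pileup, both on log scales, for the 1181 promoter peaks of protein-coding genes (grey) and the 27 of the factor genes (coloured by complex). Most factor peaks lie right of the median pileup of 36, Eif4a1 and Eef2 lie at the lower edge, and Eif2b3, Eef1d and Eif3m have high folds at low pileups.

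Ribosomal protein and aminoacyl-tRNA synthetase genes, the other large sets of the translation machinery, were described in the same way. A promoter peak was listed for 48 of 84 cytosolic ribosomal protein genes (57.1%, 45.9 to 67.9) and for 10 of 20 synthetase genes (50%, 27.2 to 72.8). The interval of the 51 factors proper, 29.3 to 57.8%, overlaps both. The median pileup was 73.5 for ribosomal protein promoter peaks and 35.5 for synthetase peaks. Their median folds were 2.68 and 3.14, so in both values the ribosomal protein peaks were nearer to the factor peaks. The factor peaks had a wider range of FA0 background, 1.60 to 68.0, than the ribosomal protein peaks, 10.3 to 48.2. In width the factor promoter peaks had a median of 413 bp, the ribosomal protein peaks 520.5 bp and all protein-coding promoter peaks 333 bp. Peaks wider than 500 bp made up 9 of the 27 factor peaks (33.3%) and 17.6% of all protein-coding promoter peaks.

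By annotation class, 22 of the 35 peaks of factor genes lay within 1 kb of a start site (62.9%), against 34.6% of the 2471 peaks of protein-coding genes. A further 4 lay at 1 to 2 kb and 1 at 2 to 3 kb. Introns held 4 of the 35 (11.4%, against 27.1%) and distal intergenic sequence 2 (5.71%, against 16.5%). The 8 peaks outside promoters had a median of 20 fragments and a median fold of 3.62, against 11 fragments and 3.84 over the non-promoter peaks of protein-coding genes. Their median was below the 72 fragments of the factor promoter peaks, but the ranges overlap, as the promoter peaks ran from 10 to 148. The range of the 8 peaks, 8 to 53 fragments, spans the median of their class. The tallest was an intergenic peak 4004 bp before Eif4a2, at chromosome 16, 23103389 to 23103774, with 53 fragments over 24.4 and a fold of 2.13. Another intergenic peak lay 22367 bp before Eif4a2, with 8 fragments. The peaks of Eif3d at 23386 and 30466 bp before its start, with 9 and 30 fragments, lay inside the neighbouring gene Cacng2, so their listing under Eif3d rests only on the nearest start site.

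The position of the summits depended on which start was used. Measured from the start of the nearest transcript in the authors' annotation, 20 of 27 promoter summits lay downstream (74.1%, exact interval 53.7 to 88.9), against 62.8% of protein-coding promoter peaks, and the median was 164 bp downstream. Measured from the RefSeq 5′ end of the gene, 25 of 27 did (92.6%, 75.7 to 99.1), against 82.2%, and only Eif5 and Eif2s3x had summits before it, by 389 and 125 bp. The authors' start lay over 100 bp from the RefSeq 5′ end for 16 of the 27 peaks. The Eef1a1 summit was 475 bp before the first and 561 bp after the second, and the Eif1 summit was 109 and 868 bp after them. With the RefSeq 5′ end, 18 genes had a summit within 1 kb, and Eef1d, Eif2b3, Eif3m, Eif4a3, Eif4g1 and Eif5a did not. That was 66.7% of the factor promoter peaks, against 47.2% of those of protein-coding genes.

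**Figure D4:**
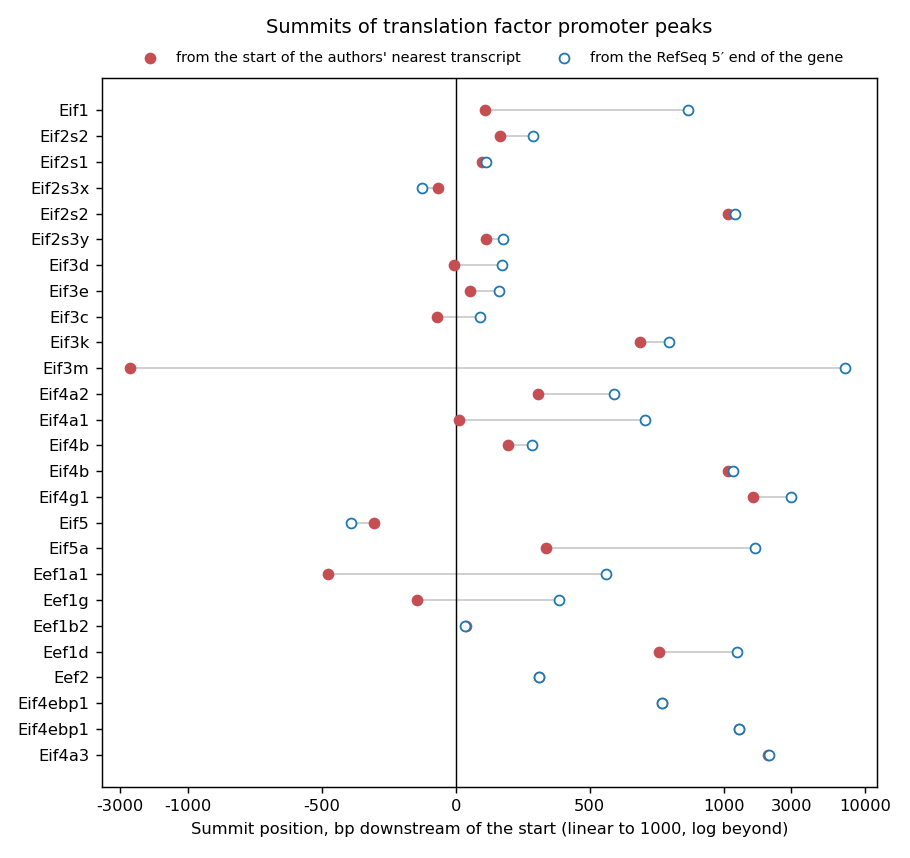
Summit positions of 26 promoter peaks of factor genes in bp downstream of the start, from the authors' nearest transcript (red) and from the RefSeq 5′ end (open blue), on an axis that is linear to 1000 bp and logarithmic beyond. Eif2b3, at 728 and 48792 bp, is not drawn, and only Eif5 and Eif2s3x have an open symbol left of 0.

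Several factor genes carry small nucleolar RNAs (snoRNAs), guides of rRNA modification, in their introns, as do many ribosomal protein genes. Here a host is a gene with a RefSeq snoRNA between its ends, and neither strand nor intron position was checked. A snoRNA lay within 9 of the 71 factor genes in RefSeq, and 6 of these 9 hosts had a promoter peak, namely Eef1b2, Eef2, Eif4a1, Eif4a2, Eif4g1 and Eif5, but not Eif2ak3, Eif3a or Eif4g2. Of the other 62 genes 18 did (29.0%). Over all protein-coding genes the shares were 16.7% of 372 hosts and 4.52% of the rest. Among ribosomal protein genes they were 18 of 30 hosts and 30 of 54 others, so there host genes were listed at nearly the same rate as the rest.

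Promoter sequences, 250 bases before to 50 after the RefSeq start, were at hand for 55 of the 71 genes, 19 with a promoter peak and 36 without, and for 17492 protein-coding genes in all. Elements were searched on both strands, and a gene counted if any of its windows held a match. The GC box (GGGCGG) was in 41 of 55 factor genes (74.5%, 61.0 to 85.3) against 49.2% of all genes. The E-box (CACGTG), bound by MYC and its relatives, was in 15 (27.3%, 16.1 to 41.0) against 8.91%, and the ETS core (CCGGAAG) in 17 (30.9%, 19.1 to 44.8) against 12.9%. In these 3 the interval lay above the share of all genes. Each of the 3 contains a CG dinucleotide. The median number of CG dinucleotides in a window, taking the highest window of each gene, was 23 in factor genes and 15 over all genes. Shares at equal CG content were not compared. Eef1akmt4 and its readthrough gene share a start and were both counted with an E-box. Ribosomal protein genes had the E-box in 9.38% and the ETS core in 40.6% of 64 genes.

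The shares with these elements were alike in factor genes with and without a promoter peak, within a few genes. The E-box was in 5 of 19 with a peak and 10 of 36 without, the ETS core in 5 and 12, and the GC box in 15 and 26. The NRF1 core (GCATGCG) was in 5 of 19 with a peak, Eef1a1, Eef2, Eif2s1, Eif3k and Eif5, and in 1 of 36 without, Eif4h, with 4.96% of all genes as background. The NRF1 counts were 1 of 9 elements looked at, rest on 6 genes, and were not tested.

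The YY1 core (AAGATGGC) was in 6 of 55 factor genes (10.9%, 4.11 to 22.2) against 3.57%, including both Eif2s3x and Eif2s3y, where it begins 16 and 20 bases into the transcript as counted from 1 at the RefSeq start. The TATA box (TATAA) was in 9 (16.4%) against 25.2% and the CCAAT box (CCAAT) in 20 (36.4%) against 42.3%. The TATA match in the Eef1a1 and Eif1 windows begins at base 26 and base 10 after the start, and in Eef2 it begins 15 bases before it. The cyclic AMP response element (TGACGTCA) was in Eef2 alone, and the amino acid response element (TGATGNAA) was in Eif2s3x and Eef2k. No match is a site or a cause of a peak by itself.

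A pyrimidine start, the feature of mRNAs whose translation follows TOR activity, was counted where a C at or within 5 bases of the start was followed by at least 4 pyrimidines. It was found in 15 of 55 factor genes (27.3%, 16.1 to 41.0), against 21.5% of all genes and 46.9% of ribosomal protein genes. Eif2s3x and Eif2s3y had runs of 11 and 12 bases, among the longest of the factor genes. Of genes with a promoter peak Eef1a1 and Eif4g1 also had one, and of those without a peak Eif3f had a run of 11 bases. These counts rest on the RefSeq starts, which may not be the starts in use. In Eef1a1 the C lies just before the RefSeq start, while the TATA match begins at base 26 after it. In Eef2 a pyrimidine run, ctcttcc, lies further into the printed window and was not counted. The window has a median GC content of 62% in factor genes with a promoter peak and 62.2% in those without, against 57.3% over all genes.

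**Figure D5:**
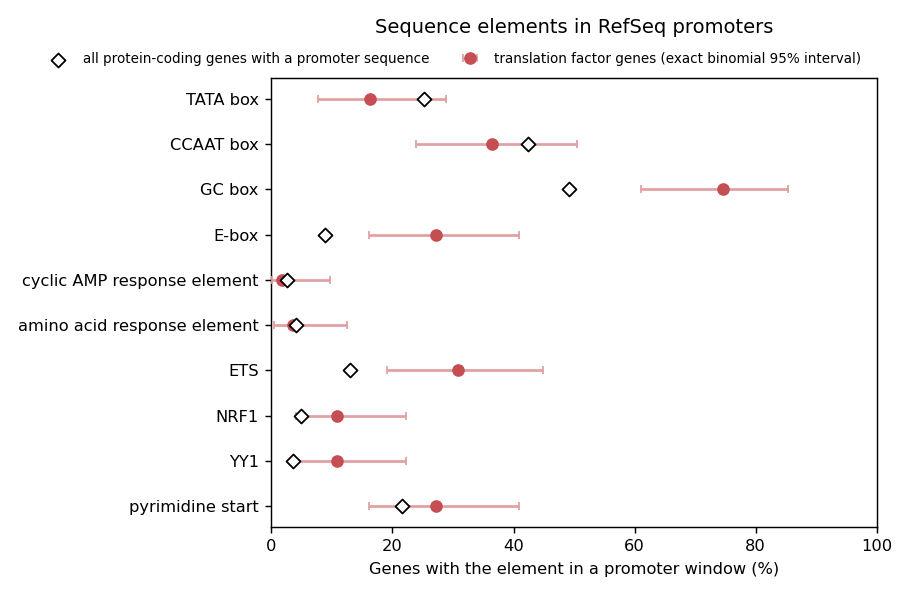
Percent of genes with each sequence element in a promoter window (horizontal axis), for 55 translation factor genes (red, with the exact binomial 95% interval) and for 17492 protein-coding genes (open diamonds). The GC box, E-box, ETS and YY1 intervals lie above the share of all genes, and the others cover it.

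A start shared with a divergent neighbour, within 1000 bp, was found for 8 of the 55 factor genes (14.5%) and 8.48% of all genes. The 8 include both Eef1akmt4 and its readthrough gene, which share a start opposite Alg3. Of the 8 genes 2 had a promoter peak, against 126 of the 1483 divergent genes among all protein-coding genes with a sequence. These 2 were Eif2s1, opposite Atp6v1d, and Eif3k, opposite Map4k1, and neither neighbour had one listed under its own name. Both summits lay inside the factor gene, 113 and 797 bp after its RefSeq 5′ end.

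Of 57 further genes of the pathway that the symbol rule does not take, 8 had a promoter peak (14.0%), against 4.73% of all protein-coding genes. Among 6 termination and recycling genes these were Etf1, the release factor that reads stop codons, with 3 promoter peaks of 37 to 65 fragments, and Abce1, the recycling ATPase, with 13 fragments. Among 13 partners of the cap, the poly(A) tail and scanning they were the helicase gene Ddx3x, with 58 fragments over 20.8 and a fold of 2.71, and Denr, with 30 over 6.68 and a fold of 4.03. Among 9 genes of the TOR pathway they were Mlst8, with 41 fragments and a fold of 2.28, and Tsc2, with 15 and 3.22. Among 7 genes of the integrated stress response only Trib3 had one, with 56 fragments and a fold of 2.54, and among 4 selenocysteine genes only Sephs1, with 33 and 2.12. None of 9 hypusine and diphthamide genes and none of 9 mitochondrial translation factor genes had a promoter peak. The organellar factors carry out the same steps as the eIFs and eEFs inside mitochondria. None of these 9 genes had a peak of any class, against 9.23% of all protein-coding genes. With so few genes, a count of 0 does not set them apart from that share.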

How the data were processed

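Sv129 mESCs in FA4 or FA0 medium were used for ChIP with an enzymatic chromatin kit and an anti-H3K27ac antibody. According to the submitters' processing notes, bcl2fastq 2.17 was used for demultiplexing, Bowtie 1.1.2 for alignment to mm10 and MACS2 2.1.0 for peak calling. The aligner and caller settings and the annotation tool are not given in the sources used here. Libraries were amplified by PCR and carried no molecular identifiers, so the intervals given cover only counting error.

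The pileup was deposited by the authors as a signal in whole fragments that was not scaled. The −log10 q-value was deposited as the peak caller computed it against the local background, the lowest being 1.31. The fold ratio that the authors deposited is pileup plus 1 over background plus 1, and the background was recovered from it here. That background is the caller's local estimate and may differ from the FA0 pileup at the same base. It is a scaled value rather than a raw FA0 fragment count, and fold therefore differs from a plain FA4 to FA0 ratio. Any factor used to scale the FA0 library is not given in the sources used here, and its size was not estimated. Backgrounds that differed from the lowest by at most 0.01 were taken as equal. Input libraries and library totals were not analysed here.

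Peaks belong to the gene of the nearest start site in the authors' annotation. Symbols were matched to RefSeq protein-coding genes of GRCm38.p6 by symbol or synonym, and 2022 of 2044 matched. Promoter sequences are RefSeq's. Every factor gene with a peak was named, as was every related gene with a promoter peak. The members and lists were chosen with earlier results of these data known. Shares have exact Clopper-Pearson intervals, pileups exact Poisson intervals and medians exact order-statistic intervals, at the 95% level. The counting steps were checked on simulated data. The alternatives were −log10 q of at least 2 or 3, fold of at least 3, promoters within 1 kb, 1 peak per gene, factors proper, overlap with the gene body, peak midpoints and other pyrimidine rules. Exclusion of chromosome 8 and the use of RefSeq 5′ ends were added after seeing the data. Scripts ran under Python 3.11.15 with numpy 2.4.6, pandas 2.3.3, matplotlib 3.10.9 and scipy 1.17.1.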

Additional observations from a re-analysis of the deposited data

How the results depend on the processing

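Of 54 comparisons of a result with an alternative setting, 48 kept the result and 6 moved it. A result was kept where a count stayed within 1.5 times of the reported one, or a share or median within the reported interval. Many of the comparisons are counts of at most 5 genes in a complex, which have little room to move. The Eif6 count of 0 could not change under stricter settings. Requiring a fold of at least 3 left 13 of 25 factor genes with a peak and 10 of 24 with a promoter peak, as 10 of the 27 promoter peaks pass that fold. The share of all protein-coding genes at that fold is not given here. Whether the excess over all genes holds at that fold was therefore not tested. With the RefSeq 5′ end the downstream share of summits was 92.6%, against 74.1%. At a −log10 q of at least 3 the Eef2 count went from 1 to 0. The pyrimidine start share, 27.3% as reported, was 3.64% with the C exactly at the start and 14.5% with at least 6 pyrimidines. No paired analysis was possible because each condition has 1 IP library, which also means that leaving out replicates was not possible. Pileups under about 20 fragments, as for Eif2b3, Eif3m, Eif4a3 and Eif5b, have wide counting intervals.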

Other observations

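The symbol rule was limited to protein-coding genes. The table also lists 1 peak under a pseudogene of this name pattern, Eif5al3-ps, a processed pseudogene of the eIF5A family. It lay in distal intergenic sequence on chromosome 5, 90140631 to 90140980 (mm10), 8402 bp from the start of the pseudogene, with 10 fragments over an FA0 background of 2.15 and a fold of 3.49. RefSeq holds 14 pseudogenes with such symbols.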
